A study of Mus musculus with 34 samples.

Results

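The globin genes were followed in whole mouse fetal liver that lacked combinations of the 3 retinoblastoma family genes. These are Rb1, the gene of p107, named Rbl1, and the gene of p130, named Rbl2. The set held every probe set annotated to the embryonic globins Hbb-y, Hbb-bh1 and Hba-x, and every probe set with a symbol that starts with Hba- or Hbb-, including those that match several adult globin genes. These were 9 genes with 15 of 45037 probe sets, 7 for the 3 embryonic and 8 for the 6 adult globins. Total RNA was taken from fresh liver that had not been fractionated or treated, and each of 34 samples was hybridised to 1 Affymetrix one-colour array. The sample labels give embryonic day 14.5 for every sample, whereas the series design gives a range of embryonic days.

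The groups were wild type (n = 2), p107 KO (n = 1), p130 KO (n = 3), p107;p130 DKO (n = 6), Rb1 KO (n = 2), Rb1;p107 DKO (n = 5), Rb1;p130 DKO (n = 9) and Rb1;p107;p130 TKO (n = 6), where KO, DKO and TKO stand for loss of 1, 2 or 3 of the genes. The labels give no strain, allele or Cre driver, so it is not known here whether a gene was lost from the whole fetus or from some of its cells. They also do not say whether the arrays of a group came from separate animals, and p-values therefore measure only the spread between these samples.

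Hemoglobin is a tetramer of α-like and β-like globin chains, each holding a heme group. In the mouse, Hba-x encodes the embryonic α-like chain ζ, and Hbb-y and Hbb-bh1 encode the embryonic β-like chains εy and βh1. These chains are made mainly by primitive red cells, which arise in the yolk sac and circulate as nucleated cells. Definitive red cells, which form in the fetal liver, make the adult chains from Hba-a1 and Hba-a2 and from the adult β genes (Hbb-bs and Hbb-bt, or Hbb-b1 and Hbb-b2, depending on the strain). A whole liver holds both definitive precursors and circulating primitive cells in its blood. In such bulk samples, fewer cells of a type and less RNA per cell cannot be told apart.

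The sequences before the start sites of the embryonic and adult genes are shown because Hba-x lies in the α cluster and Hbb-y in the β cluster, and their signals are compared below. Each run is the 250 bases before the RefSeq start, 5′ to 3′ on the gene's strand, from GRCm38.p6. Capitals mark matches on either strand to 7 motifs. These were CACCC, which binds KLF proteins, the box named CCAAT, and TGACCA, a nuclear receptor half-site. The sites for the GATA family were written as AGATAA and also searched as TGATAA. The core boxes near a start were written as TATAAA and also searched as ATAAAA. Hbb-y lies on the minus strand at chr7:103853208-103853457, Hbb-bs on the minus strand at chr7:103827929-103828178, Hba-x on the plus strand at chr11:32276350-32276599 and Hba-a2 on the plus strand at chr11:32296242-32296491.
Hbb-y: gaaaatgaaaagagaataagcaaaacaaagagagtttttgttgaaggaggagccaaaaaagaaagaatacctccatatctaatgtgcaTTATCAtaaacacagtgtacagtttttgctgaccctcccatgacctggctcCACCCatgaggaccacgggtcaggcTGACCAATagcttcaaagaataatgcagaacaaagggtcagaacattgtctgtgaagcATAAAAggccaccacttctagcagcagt
Hba-x: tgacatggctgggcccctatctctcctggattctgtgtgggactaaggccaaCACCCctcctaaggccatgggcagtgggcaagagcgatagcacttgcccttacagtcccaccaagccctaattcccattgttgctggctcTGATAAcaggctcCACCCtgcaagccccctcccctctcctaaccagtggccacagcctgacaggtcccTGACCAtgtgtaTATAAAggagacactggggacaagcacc
Hba-a2: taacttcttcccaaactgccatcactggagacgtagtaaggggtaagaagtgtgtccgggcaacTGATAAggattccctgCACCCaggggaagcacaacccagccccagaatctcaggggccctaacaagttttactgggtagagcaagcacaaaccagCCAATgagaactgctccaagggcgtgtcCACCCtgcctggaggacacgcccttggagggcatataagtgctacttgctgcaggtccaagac
Hbb-bs: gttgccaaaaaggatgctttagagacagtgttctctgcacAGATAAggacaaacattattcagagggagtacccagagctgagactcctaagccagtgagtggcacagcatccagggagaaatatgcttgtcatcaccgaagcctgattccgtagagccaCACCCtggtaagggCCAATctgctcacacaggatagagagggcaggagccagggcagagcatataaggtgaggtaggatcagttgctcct
The Hbb-y run held CACCC from 111, CCAAT from 83 and ATAAAA from 28 bases before the start, and TGATAA on the opposite strand from 162. Its TGACCA, from 86 bases before the start, overlaps the CCAAT match. The Hba-x run held TGATAA from 108, CACCC from 198 and 95, TGACCA from 40 and TATAAA from 28 bases before the start. The Hba-a2 run held TGATAA from 186, CACCC from 170 and 63, and CCAAT from 91 bases before the start. It shares an unbroken run of 247 bases with the run of Hba-a1, the adult α gene beside it. The Hbb-bs run held AGATAA from 210, CACCC from 90 and CCAAT from 76 bases before the start. Of 32851 windows of the same length, 52.0% held CACCC, 33.9% CCAAT, 17.0% ATAAAA, 12.4% TATAAA, 11.4% TGACCA, 9.99% AGATAA and 7.94% TGATAA. These matches describe letters only. The promoter of Hbb-bh1 was not used here.

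The arrays were set to the same overall level by scaling. Signals are MAS5 values on a linear scale, rescaled to a trimmed mean of 500 per array, with array medians of 80.6 to 115.9. After this scaling the highest signal on an array still ran from 33653 to 60261. Rb1 signal was 5208 to 9085 on arrays that carry the gene and 756 to 1746 on arrays without it, and Rbl1 signal was 1185 to 2713 against 43.9 to 139.4. Rbl2 signal overlapped, at 246.2 to 481.3 against 105.5 to 265.4. The arrays fell into 3 array groups of 15, 10 and 9, inferred by clustering the difference between the brightest pair of probe sets of each gene, with globins left out. These are not a recorded batch, and genotypes were spread unevenly over them. Rb1;p130 DKO had 5, 0 and 4 arrays in array groups 1, 2 and 3, Rb1;p107 DKO had 1, 4 and 0. Array group 1 held both arrays of Rb1 KO. Sex was inferred by setting Xist signal against the summed signal of Y chromosome genes, and was also uneven. Xist was the higher on 1 of 2 wild type, 0 of 1 p107 KO, 3 of 3 p130 KO and 1 of 6 p107;p130 DKO arrays. It was the higher on 0 of 2 Rb1 KO, 3 of 5 Rb1;p107 DKO, 5 of 9 Rb1;p130 DKO and 4 of 6 TKO arrays.

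Hbb-y was among the brightest probe sets on every array. Its probe set 1436823_x_at gave 32014 and 49156 in wild type, 42512 in p107 KO, and 37820, 33151 and 41845 in p130 KO. It gave 34696 and 37226 in Rb1 KO, and 36167, 50287, 47456, 49681 and 50519 in Rb1;p107 DKO. The lowest, median and highest values were 33024, 35668 and 48892 in p107;p130 DKO, 29102, 37204 and 49874 in Rb1;p130 DKO, and 36639, 39438 and 53941 in the TKO. Rb1;p107 DKO had the highest mean, 46822 ± 6078 (SD, n = 5), and Rb1 KO the lowest, 35961 ± 1789 (n = 2). In between, in rising order, were p130 KO, Rb1;p130 DKO, p107;p130 DKO, wild type, the TKO and p107 KO. Neighbours in that order differed by less than the SD of at least 1 of the groups, and their arrays overlapped or held a single array. Of the 34 values, the highest was 1.85-fold above the lowest.

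Hbb-bh1 was dimmer and more variable. Its probe set 1450736_a_at gave 7905 and 13733 in wild type, 11178 in p107 KO, and 10937, 6448 and 13359 in p130 KO. It gave 6299 and 4268 in Rb1 KO, and 7477, 9198, 7217, 7844 and 8178 in Rb1;p107 DKO. The lowest, median and highest values were 6897, 8727 and 10645 in p107;p130 DKO, 4220, 6252 and 12049 in Rb1;p130 DKO, and 8454, 9141 and 10906 in the TKO. Both Rb1 KO arrays were below both wild type arrays, and below all 6 arrays of each of p107;p130 DKO and the TKO. In rising order the means were 5283 ± 1436 in Rb1 KO (n = 2), 7133 ± 2745 in Rb1;p130 DKO (n = 9), 7983 ± 771 in Rb1;p107 DKO (n = 5), 8758 ± 1262 in p107;p130 DKO (n = 6), 9479 ± 969 in the TKO (n = 6), 10248 ± 3507 in p130 KO (n = 3) and 10819 ± 4121 in wild type (n = 2). No step between neighbours exceeded the larger of their SDs. The other probe sets of the gene, 1437810_a_at and 1437990_x_at, also had their lowest mean in Rb1 KO, at 4741 ± 832 and 4155 ± 453.

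Hba-x had the widest spread of the embryonic genes within genotypes. It gave 16148 and 27494 in wild type, 22747 in p107 KO, and 18842, 9349 and 27270 in p130 KO. It gave 17778 and 8438 in Rb1 KO, and 21008, 29008, 21634, 22021 and 19876 in Rb1;p107 DKO. The lowest, median and highest values were 11820, 17086 and 23809 in p107;p130 DKO, 8648, 9577 and 26480 in Rb1;p130 DKO, and 17099, 22225 and 26051 in the TKO. The 8 lowest arrays lay between 8438 and 10029, and the next was at 11820. They were array 2 of Rb1 KO, array 2 of p130 KO and arrays 1, 2, 3, 4, 5 and 8 of Rb1;p130 DKO, all of which carry p107. Of these 8, 7 belonged to array group 1, and array 8 of Rb1;p130 DKO to array group 3. The other 3 arrays of Rb1;p130 DKO were at 17719, 21460 and 26480, all in array group 3, so the genotype spanned most of the range of the series.
The order of the Hba-x means was Rb1 KO (13108 ± 6604, n = 2), Rb1;p130 DKO (13406 ± 6743, n = 9), p107;p130 DKO (17124 ± 3976, n = 6), p130 KO (18487 ± 8966, n = 3), wild type (21821 ± 8023, n = 2), the TKO (22238 ± 3490, n = 6), Rb1;p107 DKO (22709 ± 3613, n = 5) and the p107 KO array. Neighbours differed by less than the larger SD throughout.

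**Figure D1:**
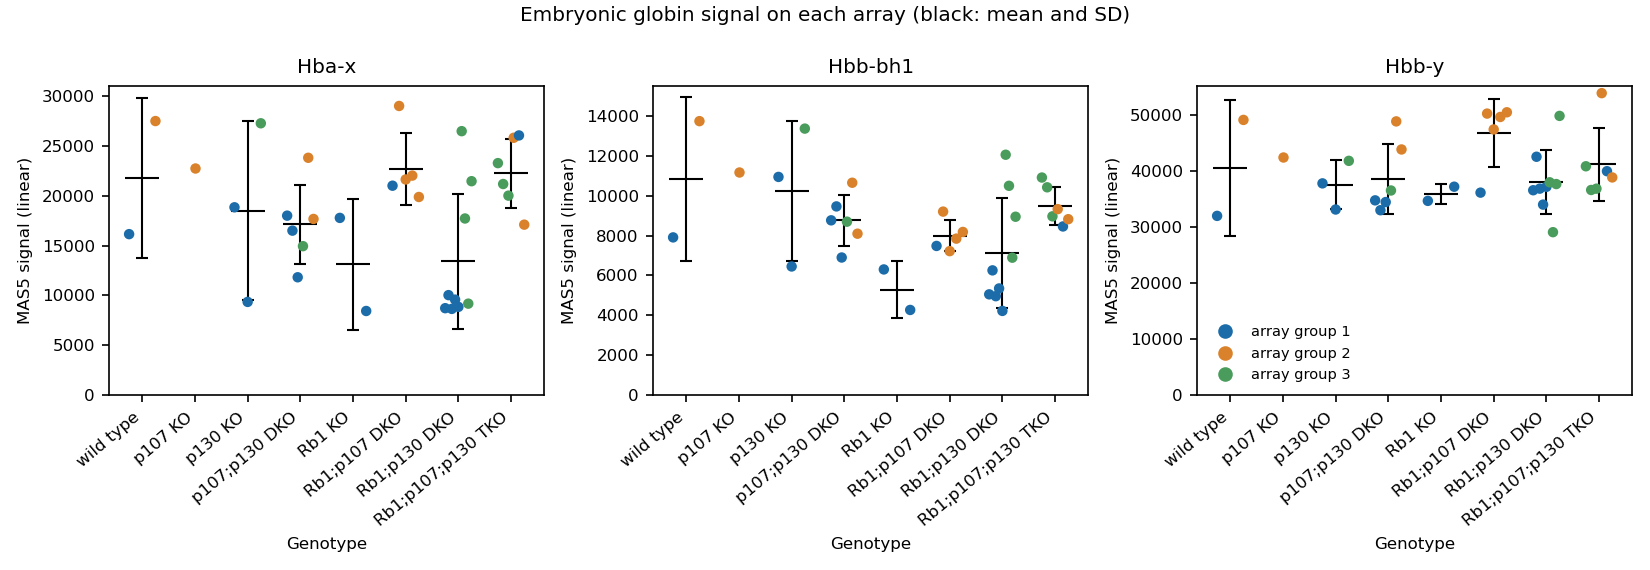
MAS5 signal (linear) of Hba-x (1448716_at), Hbb-bh1 (1450736_a_at) and Hbb-y (1436823_x_at) on each array by genotype, coloured by array group, with black bars for the mean and SD. Hba-x and Hbb-bh1 are low on the array group 1 arrays of Rb1;p130 DKO, where Hba-x is at most 10029, and higher on most of that genotype's array group 3 arrays.

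The adult globins were bright on 5 of their 8 probe sets. Probe set 1417184_s_at, which matches Hbb-bt, Hbb-bs, Hbb-b2 and Hbb-b1, gave 12893 and 21217 in wild type, 22781 in p107 KO, 17305, 17142 and 24891 in p130 KO, and 17782 and 21761 in Rb1 KO. It gave 23584, 22479, 24112, 22548 and 28883 in Rb1;p107 DKO, and its lowest, median and highest values were 15358, 19653 and 20616 in p107;p130 DKO, 12779, 20846 and 27220 in Rb1;p130 DKO, and 17382, 20917 and 24198 in the TKO. The 5 Rb1;p107 DKO arrays were all above those of wild type, Rb1 KO and p107;p130 DKO, and overlapped those of p130 KO, Rb1;p130 DKO and the TKO. The 3 probe sets shared by Hba-a1 and Hba-a2 had means over all arrays of 33680 (1417714_x_at), 27828 (1452757_s_at) and 26005 (1428361_x_at). Their highest arrays were 2.40 to 2.74-fold above their lowest. Because their sequences are shared, these 4 probe sets give no level for a single adult gene.

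Probe set 1427866_x_at, annotated to Hbb-b2 alone, varied most among the bright ones. It reached 4078 on array 9 and 5470 on array 6 of Rb1;p130 DKO, against 10043 to 22916 on the other arrays of the series. Both low arrays were in array group 3. On array 9 the shared adult β probe set read 27220, the second highest value of the 34, while this one read its lowest. Across the arrays the correlation of the 2 adult β probe sets did not pass the test (Pearson r = -0.21, Spearman rho = -0.10, adjusted permutation p = 0.318), although both are annotated to Hbb-b2. The labels give no strain, and mouse strains carry different adult β genes.

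Hba-a2 had a dim probe set, 1427219_at, which reported a signal of 105.9 to 367.8 while the shared α probe sets were at 16192 or more on every array. Probe sets 1453574_at (Hba-a1) and 1427865_at (Hbb-b2) were near background. They reached 100 on 0 arrays and on 1 array, an Rb1 KO array at 112.0, and were not tested. The remaining 13 of the 15 probe sets passed the filter, which kept signals of 100 or more on 2 or more arrays.

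The brightest globin probe sets lay near the top of each array's range, where a probe set may no longer respond fully to more RNA. Hbb-y probe sets 1436717_x_at and 1436823_x_at had a median rank of 7.5 and 8.5 of 45037, and read 76.9 to 95.3% and 73.8 to 100% of the highest signal on their array. On 1 array Hbb-y was itself the highest. Their signal followed the brightest probe set that was no globin, with Pearson r = 0.93 and 0.90 and Spearman rho = 0.92 and 0.91 over 34 arrays (adjusted permutation p = 1.86e-05 for each r, the smallest possible here, 13 relations). Without the 2 arrays farthest from the median the r values were 0.93 and 0.89, and within array groups they were 0.81 to 0.96. The highest signal differed between arrays after scaling, so bright probe sets of any gene may rise and fall with it. Probe sets of like brightness that are no globins were not set beside these values. Whether the relation is particular to globins, or reflects a ceiling, was not tested. The third Hbb-y probe set, 1450621_a_at, lay lower, with a median rank of 69 and 57.1 to 82.4% of the highest signal. It gave r = 0.84 (adjusted permutation p = 1.86e-05), and 0.50, 0.91 and 0.86 within array groups 1, 2 and 3. The 4 bright probe sets shared between adult genes gave 0.68 to 0.85 (adjusted permutation p = 1.86e-05 each). Without the 2 farthest arrays these adult values were 0.50 to 0.77. For the remaining bright adult probe set, Hbb-b2 1427866_x_at, the relation did not pass the test (r = -0.19, rho = 0.105, adjusted permutation p = 0.376).
For Hbb-bh1 the relation did not pass the test, with r = 0.07, 0.21 and 0.14 for 1437810_a_at, 1437990_x_at and 1450736_a_at (adjusted permutation p = 0.323 to 0.747), and for Hba-x the measures were mixed (r = 0.32, adjusted permutation p = 0.108, rho = 0.44, adjusted permutation p = 0.0168). The SD of log2 signal within genotypes was 0.21 to 0.22 for the 3 Hbb-y probe sets, close to the median of 0.20 for the 175 probe sets with a mean signal of 25000 or more. It was 0.49 for Hba-x, against a median of 0.21 for the 684 probe sets of 10000 or more, and 0.33 to 0.39 for Hbb-bh1, against 0.24 for the 6080 between 1000 and 10000. Small differences of Hbb-y between genotypes were measured near the top of the range, and how much this compresses them was not tested. The 4 shared adult probe sets read 43.4 to 70.9% of their array's highest signal in the median, and Hbb-b2 1427866_x_at 33.6%.

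**Figure D2:**
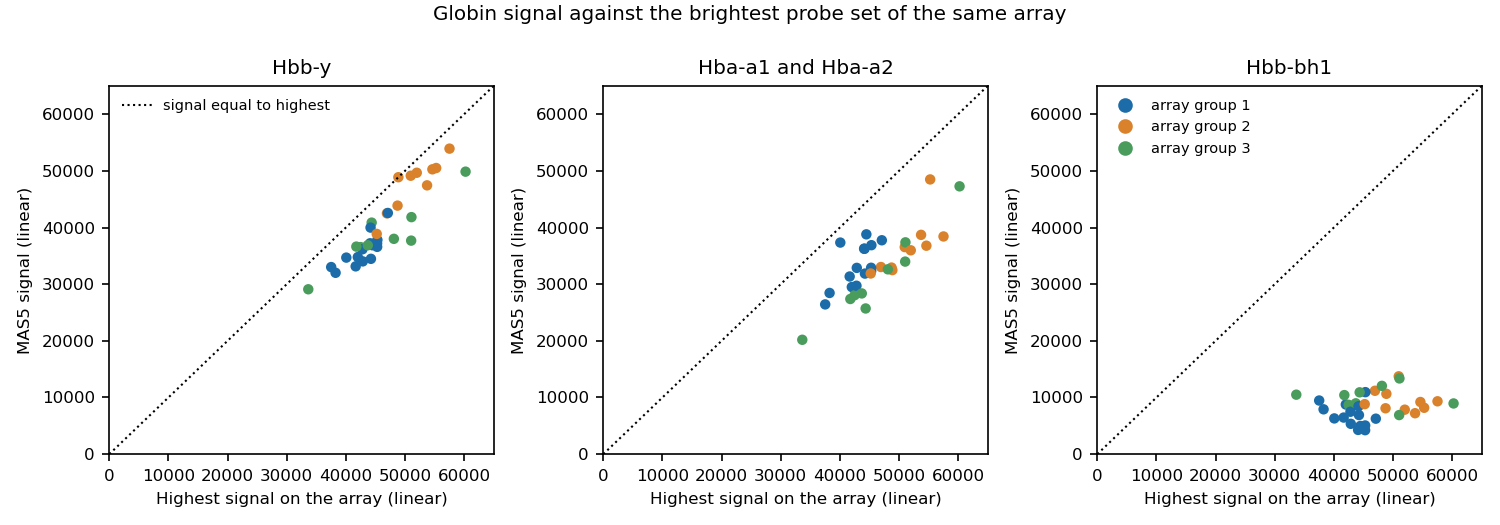
MAS5 signal (linear) of Hbb-y (1436823_x_at), of the probe set shared by Hba-a1 and Hba-a2 (1417714_x_at) and of Hbb-bh1 (1450736_a_at) against the highest signal on the same array, coloured by array group, with a dotted line where both are equal. Hbb-y lies close under the line at 73.8 to 100% of the highest signal, the adult α probe set lies lower at 58.0 to 93.2%, and Hbb-bh1 stays at 9.32 to 31.2%.

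Loss of Rb1 over all backgrounds was read from an additive fit in limma with 1 term for each of the 3 genes, which sets 22 arrays without Rb1 against 12 with it. Of the 13 globin probe sets tested, 1 was called (adjusted p under 0.05 over all probe sets), and it was higher. Over all 28005 probe sets, 485 (1.73%) were called, 386 (1.38%) of them higher. The called probe set was the dim Hba-a2 probe set, 1427219_at. Its values were 189.6 and 179.2 in wild type, 105.9 in p107 KO, and 235.0, 220.6 and 134.3 in p130 KO. In p107;p130 DKO its lowest, median and highest values were 109.4, 128.3 and 202.8. Without Rb1 it gave 314.6 and 305.4 in Rb1 KO, and 255.5, 185.3, 184.5, 184.3 and 227.0 in Rb1;p107 DKO. The lowest, median and highest values were 155.1, 303.8 and 367.8 in Rb1;p130 DKO, and 133.9, 232.8 and 278.4 in the TKO. The arrays without Rb1 were mostly above those with it, with overlap between 133.9 and 235.0. The log2 change was 0.50 ± 0.11 (SE; 95% interval 0.28 to 0.72, 1.42-fold, adjusted p = 0.00604), and 20 of 22 arrays without Rb1 were above the mean of the others. Such counts of arrays were made on log2 values, against the mean of the log2 values of the other group. The mean signal was 249.0 against 162.8.

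This Hba-a2 value also moved with array group. Within array group 1 the 9 arrays without Rb1 (247.7 to 367.8) did not overlap the 6 with it (125.3 to 235.0). Within array group 2 they were 133.9 to 278.4 (n = 6) against 105.9 to 179.2 (n = 4), and within array group 3 155.1 to 251.6 (n = 7) against 123.5 to 134.3 (n = 2). The change was 0.53, 0.64 and 0.61 within array groups 1, 2 and 3 (adjusted p = 0.0259, 0.232 and 0.50), and 0.56 ± 0.09 with array group as a block (adjusted p = 3.67e-05). Leaving out any 1 array kept the call, with adjusted p from 0.00126 to 0.0183. The call was lost when each array was centred on the red cell markers (0.45, adjusted p = 0.120, 1.08% of all probe sets called) or on the 100 brightest probe sets that are no globins (0.45, adjusted p = 0.128, 0.936% called). The bright probe sets shared by Hba-a1 and Hba-a2 changed by 0.07 to 0.19 and were not called (adjusted p = 0.503 to 0.868). Within array group 1, 1428361_x_at was called (0.34 ± 0.07, adjusted p = 0.0243), as was the adult β probe set 1417184_s_at (0.42 ± 0.10, adjusted p = 0.0494), and within array group 2 Hbb-b2 1427866_x_at was called (0.54 ± 0.11, adjusted p = 0.0428). Of all 28005 probe sets, 282 were called within array group 1 and 288 within array group 2. Over the arrays, 1427219_at and 1417714_x_at correlated at r = 0.29 (rho = 0.30, adjusted permutation p = 0.173). What transcript the dim probe set reports was not tested.

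**Figure D3:**
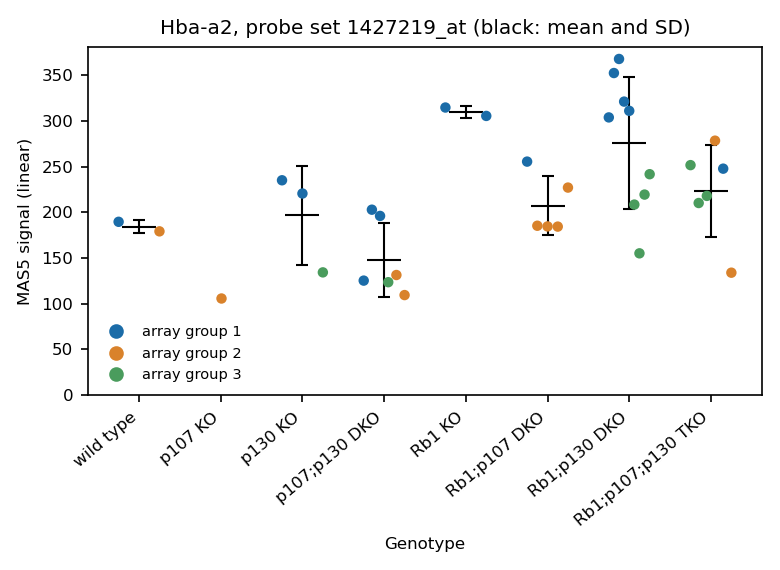
MAS5 signal (linear) of the dim Hba-a2 probe set 1427219_at on each array by genotype, coloured by array group, with black bars for the mean and SD. Both Rb1 KO arrays (305.4 and 314.6) lie above both wild type arrays, and in the genotypes that lack Rb1 the array group 1 arrays are high, from 247.7 to 367.8.

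The embryonic globins were not called with Rb1 loss. All 3 Hbb-bh1 probe sets were lower without Rb1, by a log2 change of -0.31 ± 0.14 (1450736_a_at, 95% interval -0.58 to -0.04, adjusted p = 0.395), -0.32 ± 0.15 (1437990_x_at, adjusted p = 0.434) and -0.23 ± 0.12 (1437810_a_at, adjusted p = 0.550). Of the 22 arrays without Rb1, 18, 17 and 15 were below the mean of the Rb1-carrying arrays. With array group as a block, 1450736_a_at (-0.40 ± 0.10, adjusted p = 0.0154) and 1437990_x_at (-0.40 ± 0.12, adjusted p = 0.0470) were called lower and 1437810_a_at was not (-0.29, adjusted p = 0.170). In that fit 3 of 13 globin probe sets were called, against 3.41% of all probe sets. Within array groups 1, 2 and 3 the change of 1450736_a_at was -0.46, -0.23 and -0.16, while that of 1437990_x_at was -0.40, -0.47 and 0.16. In the third array group only 2 arrays carry Rb1. Hba-x changed by -0.09 ± 0.17 (95% interval -0.44 to 0.25, adjusted p = 0.930), with 10 of 22 arrays below the mean of the others. The 3 Hbb-y probe sets changed by 0.06 to 0.12 (adjusted p = 0.679 to 0.883). Of these, 1436823_x_at turned to -0.01 with quantile normalization. The median over the 13 globin probe sets was 0.07, against -0.01 over all probe sets.

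Hbb-bh1 and the dim Hba-a2 probe set differed most between Rb1 KO and wild type, among the comparisons of Rb1 loss. Rb1 KO against wild type had 2 arrays a group, 0 of 13 globin probe sets called and 1 of 28005 probe sets (0.00357%) called. At an unadjusted p under 0.05, limma had 4 globin probe sets and 970 of all probe sets. Hbb-bh1 differed by -1.25 ± 0.36 (1437990_x_at), -1.0 ± 0.35 (1450736_a_at) and -0.91 ± 0.31 (1437810_a_at), each with an adjusted p of 1, and the Rb1 KO arrays lay below both wild type arrays. Hba-x differed by -0.78 ± 0.45, with overlap. The dim Hba-a2 probe set differed by 0.66 ± 0.31 without overlap. Here and above, how many of all probe sets were without overlap was not counted. Separation of 2 arrays from 2 is therefore not set against chance. Wild type array 1 was in array group 1, like both Rb1 KO arrays, and wild type array 2, the higher for each embryonic globin, was in array group 2. Against wild type array 1 alone, which is also the comparison within array group 1, Hbb-bh1 differed by -0.57 (1437990_x_at), -0.61 (1450736_a_at) and -0.45 (1437810_a_at), and against wild type array 2 alone by -1.93, -1.40 and -1.37. Hba-x differed by -0.40 and -1.16 in the same way, and by -1.32 without array 1 and -0.24 without array 2 of Rb1 KO.
The TKO against p107;p130 DKO, which both lack p107 and p130, had 0 of 13 called (0.221% of all probe sets). At an unadjusted p under 0.05, limma had 1 globin probe set (1541 of 28005 overall). Here Hba-x was 0.39 ± 0.26 higher, with 6 of 6 TKO arrays above the p107;p130 DKO mean of log2 values, and Hbb-bh1 (1450736_a_at) was 0.12 ± 0.20 higher, both with an adjusted p of 1. Within array groups 1, 2 and 3 the Hba-x difference was 0.78, 0.03 and 0.52. Hba-a2 1427219_at was 0.51 ± 0.18 higher (adjusted p = 0.536), and with the array group block this was called (0.66 ± 0.14, adjusted p = 0.0172, against 0.632% of all probe sets). Where p130 alone was absent, Rb1;p130 DKO against p130 KO had 0 of 13 called (0.0821% of all). At an unadjusted p under 0.05, limma had 1 globin probe set (1308 of 28005 overall). Hbb-bh1 (1450736_a_at) was at -0.55 ± 0.23 (adjusted p = 0.993) and Hba-x at -0.47 ± 0.30 (adjusted p = 1). These moved with single p130 KO arrays. Hbb-bh1 was at -0.85 and Hba-x at -0.89 without array 2 of p130 KO, and at -0.32 and -0.12 without array 3. The test of whether the effect of Rb1 loss differed with p107, given p130 loss, called 0 of 13 globin probe sets and 0 of all probe sets (0.0%). Its estimates were 0.86 ± 0.40 for Hba-x and 0.67 ± 0.31 for Hbb-bh1 (1450736_a_at), both with an adjusted p of 1. They were the 2 globin probe sets at an unadjusted p under 0.05 by limma (478 of 28005 overall). Without array 3 of p130 KO the Hba-x estimate was 0.52, and without array 2 it was 1.29. The TKO against wild type had 0 of 13 called (0.0607% of all) and 0 at an unadjusted p under 0.05 by limma, with Hba-x at 0.06 ± 0.37 and Hbb-y (1436823_x_at) at 0.04 ± 0.17.

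With loss of p107 the estimates for Hba-x and Hbb-bh1 were above 0, but no globin probe set passed the test. The 18 arrays without p107 were compared with 16 that carry it in the same additive fit. Of the 13 probe sets 0 were called, against 0.568% of all, and 5 had an unadjusted p under 0.05 by limma (4210 of 28005 overall). Hba-x was 0.52 ± 0.16 higher (95% interval 0.18 to 0.85, 1.43-fold, adjusted p = 0.136), with 17 of 18 arrays above the mean log2 value of the p107-carrying arrays. Hbb-bh1 was 0.42 ± 0.14 (1437990_x_at, adjusted p = 0.163), 0.31 ± 0.12 (1437810_a_at, adjusted p = 0.202) and 0.24 ± 0.13 (1450736_a_at, adjusted p = 0.382) higher. Hbb-y was 0.12 to 0.17 higher (adjusted p = 0.271 to 0.410). The dim Hba-a2 probe set changed by -0.34 ± 0.11 (adjusted p = 0.130), opposite in sign to the embryonic genes.
Array group moved with these values. With array group as a block Hba-x was at 0.35 ± 0.16 (adjusted p = 0.395), and 2 of the 3 Hbb-y probe sets turned to -0.03. Within array groups 1, 2 and 3 the Hba-x change was 0.70, -0.28 and 0.04. Only wild type array 2 carries p107 in array group 2, so that group rests on a single array. Weighting each array by its precision in limma instead called 3 of the 13 (2.79% of all probe sets), namely Hba-x (0.60, adjusted p = 0.0260), Hbb-bh1 1437990_x_at (0.49, adjusted p = 0.0425) and the dim Hba-a2 probe set (-0.42, adjusted p = 0.0272). Without wild type array 2, Hbb-bh1 1437990_x_at was called (0.52 ± 0.13, adjusted p = 0.0375). When single arrays were left out, the number called with p107 loss over all 28005 probe sets ran from 75 to 358. With p107 loss, array group and genotype cannot be fully told apart.

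Among genotypes that share the loss of Rb1, Rb1;p107 DKO and Rb1;p130 DKO differ in which of p107 and p130 is lost. Rb1;p107 DKO against Rb1;p130 DKO had 0 of 13 called (0.2% of all). At an unadjusted p under 0.05, limma had 6 globin probe sets (4828 of 28005 overall). Hba-x was 0.88 ± 0.25 higher (1.84-fold, adjusted p = 0.0926), and all 5 arrays were above the Rb1;p130 DKO mean log2 value. The Hbb-y probe sets were 0.30 to 0.32 higher (adjusted p = 0.158 to 0.189) and Hbb-bh1 0.24 to 0.51 higher (adjusted p = 0.198 to 0.534). Centring on the 100 brightest probe sets shifted every value of this comparison by -0.23, which left Hbb-y (1436823_x_at) at 0.08 and Hba-x at 0.66. With array group as a block Hbb-y was at 0.004 ± 0.11 and Hba-x at 0.80 ± 0.27 (adjusted p = 0.955). With array weights 5 of 13 were called, against 13.3% of all probe sets, namely Hba-x (1.06, adjusted p = 0.00192), the 3 Hbb-y probe sets and Hbb-bh1 1437990_x_at. Without array 1 of Rb1;p107 DKO, Hbb-y 1436717_x_at was called (0.40 ± 0.12, adjusted p = 0.0430). When single arrays were left out, the number called over all 28005 probe sets ran from 14 to 1238 in this comparison. No array of Rb1;p107 DKO was in array group 3 and none of Rb1;p130 DKO in array group 2.
The TKO against Rb1;p130 DKO, which differ in p107, had 0 of 13 called (0.0428% of all). At an unadjusted p under 0.05, limma had 4 globin probe sets (1403 of 28005 overall). Hba-x was 0.85 ± 0.24 higher (1.80-fold, adjusted p = 0.441), with 6 of 6 TKO arrays above the Rb1;p130 DKO mean log2 value, and Hbb-bh1 0.60 ± 0.19 (1437990_x_at) and 0.49 ± 0.18 (1450736_a_at) higher (adjusted p = 0.675 and 0.893). With array group as a block Hba-x was at 0.67 ± 0.22 (adjusted p = 0.315). Within array group 1, where 1 TKO array at 26051 met 5 Rb1;p130 DKO arrays with a mean of 9165, Hba-x differed by 1.51. Within array group 3, with means of 21487 (n = 3) and 18708 (n = 4), it differed by 0.30. Hbb-bh1 1450736_a_at differed by 0.72 and 0.10 within the same array groups. With array weights 1 was called, Hba-x (0.99, adjusted p = 0.0460), against 0.0643% of all. This comparison shares its Rb1;p130 DKO arrays with the one above. With Rb1 present, in p107;p130 DKO against p130 KO, Hba-x differed by -0.01 ± 0.32 and Hbb-bh1 (1450736_a_at) by -0.18 ± 0.25 (adjusted p of 1 for both), with 0 of 13 called (0.0357% of all) and 0 at an unadjusted p under 0.05 by limma. The Hba-x value was -0.44 without array 2 and 0.33 without array 3 of p130 KO, and 0.19 and -0.87 within array groups 1 and 3.

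**Figure D4:**
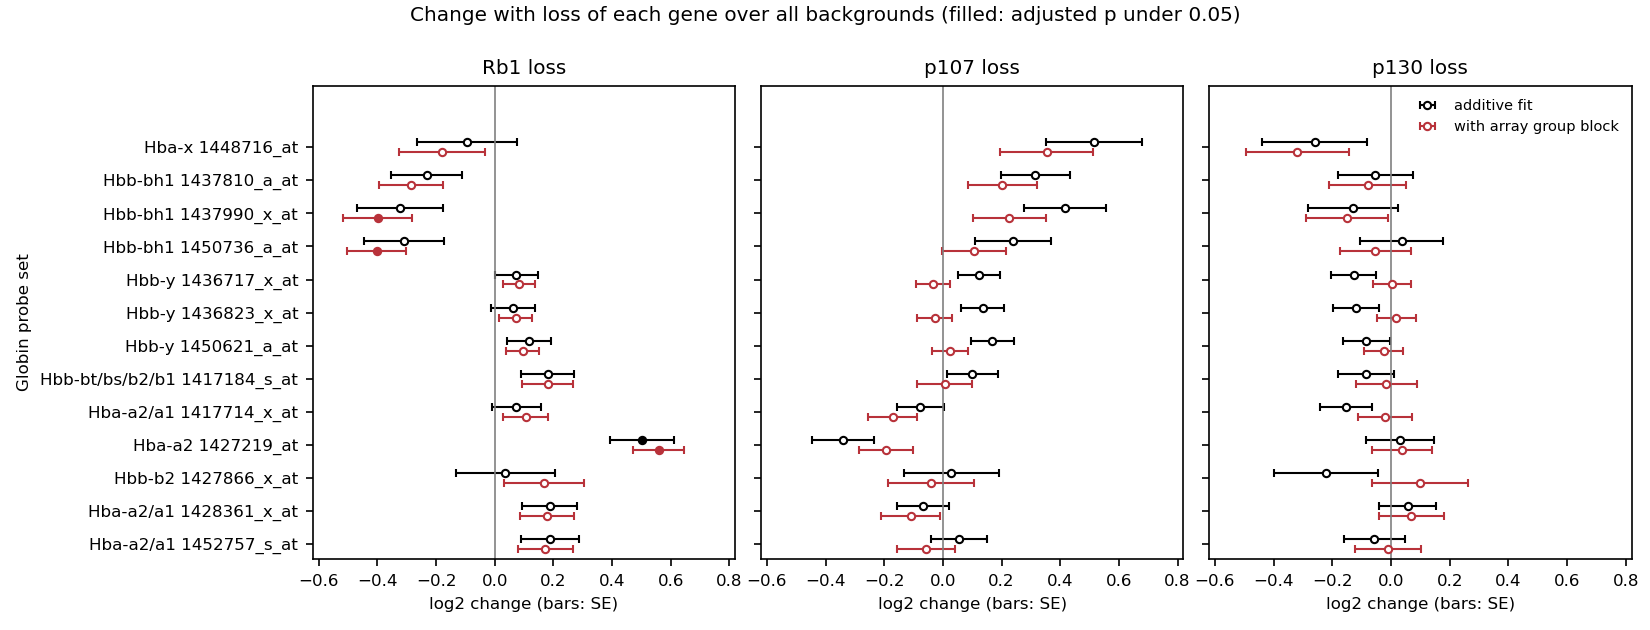
Log2 change (points) and SE (bars) of the 13 tested globin probe sets with loss of Rb1, p107 or p130 over all backgrounds, in black for the additive fit and in red with array group as a block; filled points have an adjusted p under 0.05. Hba-a2 1427219_at is filled in both fits with Rb1 loss (0.50 and 0.56), 2 Hbb-bh1 probe sets are filled only with the block (-0.40 each), and none is filled with p107 or p130 loss.

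Loss of p130 gave 0 of 13 called (0.0143% of all) and 0 at an unadjusted p under 0.05 by limma. Hba-x changed by -0.26 ± 0.18 (adjusted p = 0.613), Hbb-bh1 by -0.13 to 0.04 and Hbb-y by -0.13 to -0.08. The TKO against Rb1;p107 DKO, which differ in p130, likewise had 0 of 13 called (0.00357% of all) and 0 at an unadjusted p under 0.05, with Hba-x at -0.03 ± 0.27. Rb1;p107 DKO against p107;p130 DKO had 0 of 13 called (0.346% of all). At an unadjusted p under 0.05, limma had 2567 of 28005 probe sets, 6 of them globin probe sets. Those were the 3 Hbb-y probe sets (0.28 to 0.33), the shared adult β probe set 1417184_s_at (0.39 ± 0.15), 1417714_x_at (0.32 ± 0.14) and Hba-a2 1427219_at (0.43 ± 0.19). Centring on the 100 brightest probe sets shifted all values of this comparison by -0.25 and left Hbb-y (1436823_x_at) at 0.03 and 1417184_s_at at 0.13. Within array groups 1 and 2 Hbb-y (1436823_x_at) differed by 0.09 and 0.09, 1417184_s_at by 0.48 and 0.28, 1417714_x_at by 0.03 and 0.28, and Hba-a2 1427219_at by 0.50 and 0.58, where array group 1 holds 1 Rb1;p107 DKO array. With array weights 6 of 13 were called, against 10.8% of all.

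Hba-x and Hbb-bh1, which lie on different chromosomes, varied together over the arrays. The log2 values of Hba-x and of Hbb-bh1 1450736_a_at correlated at Pearson r = 0.84 and Spearman rho = 0.77 over 34 arrays (adjusted permutation p = 3.9e-05, 78 pairs of probe sets), and at 0.80 without the 2 arrays farthest from the median. Within array groups 1, 2 and 3 r was 0.82, 0.53 and 0.89. After the genotype means were removed, r was 0.90 (rho = 0.84, adjusted permutation p = 3.9e-05) and 0.87, 0.78 and 0.92 within the array groups. The relation was also present among arrays of the same genotype. Hbb-y (1436823_x_at) and Hba-x correlated at r = 0.51 (adjusted permutation p = 0.00621), but within array groups at -0.03, 0.68 and 0.29. Hbb-y and Hbb-bh1 correlated at r = 0.28 (adjusted permutation p = 0.180), with Hbb-y measured near the top of the range.
Probe sets of the same gene were alike, at r = 0.90 to 0.99 for the 3 of Hbb-y and 0.86 to 0.94 for the 3 of Hbb-bh1 (adjusted permutation p = 3.9e-05 each). The dim Hba-a2 probe set ran against Hbb-bh1 1450736_a_at, at r = -0.62 (rho = -0.57, adjusted permutation p = 3e-04) and -0.65 without the 2 farthest arrays. After genotype means were removed it was -0.52 (adjusted permutation p = 0.00378). That relation was, for the values, -0.68 within array group 1 and -0.18 and -0.24 within array groups 2 and 3.

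**Figure D5:**
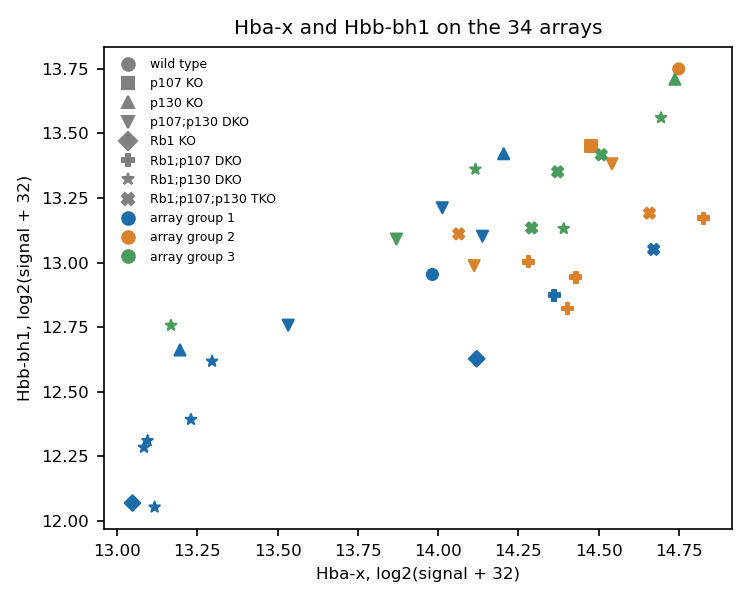
Log2(signal + 32) of Hbb-bh1 (1450736_a_at) against that of Hba-x (1448716_at) on the 34 arrays, with symbols for genotype and colours for array group. The points rise together (r = 0.84), with the 5 array group 1 arrays of Rb1;p130 DKO and 1 Rb1 KO array at the lower left.

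The genes most like the embryonic globins were found by correlating deviations from genotype means with the mean of the 3 embryonic globins, standardised, over 34 arrays and 8487 genes. The highest were Copb2 (r = 0.84), which encodes a coat protein of transport vesicles, the chaperonin subunit gene Cct4 (0.84), the nuclear pore gene Nupl1 (0.83), the tubulin cofactor gene Tbcd (0.82), Vcp (0.81), an ATPase that unfolds ubiquitin-tagged proteins, the mitochondrial gene Foxred1 (0.81), the RNA-binding protein gene Hnrnpab (0.80) and Hint1 (0.79). The lowest were Btg2 (-0.82), an antiproliferative gene, Nek8 (-0.77), the lysosomal gene Psap (-0.76) and Tac2 (-0.75). Over all genes the lower and upper tails began at -0.50 and 0.61 (5 and 95% points). With array group means removed in place of genotype means, the values were 0.49 to 0.70 for the 8 highest and -0.25 to -0.56 for the 4 lowest. Many arrays share an array group, and the genes were picked for this likeness, so no test is given.

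Of the regulators of globin genes and of the switch from embryonic to adult globin, 2 were called, both with Rb1 loss. The list held 35 genes, of which 34 were tested, among them the repressors Bcl11a and Zbtb7a, the activators Klf1, Gata1 and Tal1, and subunits of the repressive complexes that bind the embryonic genes. With Rb1 loss 2 of the 34 were called higher and 0 lower by limma, where 1.73% of all probe sets were called, and these were Mbd2 (0.28 ± 0.06, adjusted p = 0.00506), a reader of methylated DNA, and Nr2c2 (0.25 ± 0.06, adjusted p = 0.00602), a nuclear receptor of the direct repeat complex that binds embryonic globin promoters. The list's median log2 change was -0.01, like that of all probe sets. Among regulators singled out for their known roles after their values were seen, Bcl11a was at -0.12 ± 0.09 (adjusted p = 0.719), Klf1 at 0.09 ± 0.09 (adjusted p = 0.832) and Sox6 at -0.02 ± 0.11 (adjusted p = 0.980). In the other 12 comparisons 0 of the 34 were called.

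Of 8 genes listed under globin chain handling, 7 were tested and 2 were called with Rb1 loss, both lower. Of all probe sets 1.73% were called, most of them higher. The called genes were Xpo7 (-0.68 ± 0.09, adjusted p = 1e-05), a nuclear export receptor of maturing red cells, and Ube2o (-0.68 ± 0.12, adjusted p = 3.75e-04), a ubiquitin ligase that removes unpaired α chains among other proteins. By these roles only Ube2o acts on globin chains, so the 2 calls are not a count of chain-handling genes. Xpo7 was also lower in the TKO than in p107;p130 DKO (-0.77 ± 0.15, adjusted p = 0.0143). The heme-regulated kinase gene Eif2ak1, which restrains globin synthesis, was at 0.07 ± 0.08 (adjusted p = 0.874). Of 13 genes beside the α and β globin clusters, 10 were tested and 0 called in any of the 13 comparisons. Nprl3, whose introns hold the α-globin enhancers, was at -0.19 ± 0.08 with Rb1 loss (adjusted p = 0.367). Of 7 genes that mark definitive red cell precursors, 7 were tested and 0 called in any comparison. Of 4 other globin-fold genes only Ngb was tested, and it was not called.

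Markers of the cells in the liver are given because globin RNA comes from red cells. Of 12 red cell markers, 9 had a probe set of their own, all at 100 or more on at least 2 arrays, and their summed signal was 108870 and 155160 in wild type. Its lowest, median and highest values were 98261, 121270 and 139890 in p107;p130 DKO, 116810, 155760 and 160480 in Rb1;p107 DKO, 106830, 130680 and 146290 in Rb1;p130 DKO, and 108430, 127050 and 161160 in the TKO. The genotypes overlapped, and the median was highest in Rb1;p107 DKO, the genotype with the highest Hbb-y mean. With Rb1 loss 1 marker was called, Add2, a membrane skeleton gene (-0.31 ± 0.08, adjusted p = 0.0398), and 1 with p107 loss, the blood group gene Kel (-0.32, adjusted p = 0.0110). Over all probe sets 1.73% were called with Rb1 loss and 0.568% with p107 loss. The median log2 change of the 9 red cell markers was 0.08 with Rb1 loss and -0.002 with p107 loss. Hepatocyte markers (9 genes, all at 100 or more on at least 2 arrays) summed to 124570 to 208770 over all arrays. Their median was also highest in Rb1;p107 DKO (182480), as was that of the endothelial markers (3823). The macrophage, neutrophil, megakaryocyte and mesenchymal lists had their highest median in other genotypes. The macrophage, neutrophil, megakaryocyte, endothelial and mesenchymal lists, like the hepatocyte list, had 0 members called with loss of any of the 3 genes. The part of cell content in the globin values was not tested. Centring on the red cell markers cannot decide it, because it shifts every probe set of a comparison by the same amount. That shift was -0.05 with Rb1 loss and 0.01 with p107 loss, which left Hba-x at -0.14 and 0.52. For Rb1;p107 DKO it was -0.16 against Rb1;p130 DKO and -0.25 against p107;p130 DKO.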

How the data were processed

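Total RNA of 34 fetal liver samples was labelled with biotin by a one-cycle protocol, per the labels' protocols. The deposited values are intensities on a linear scale, computed by the authors with MAS5 in GCOS 1.4, per the submitters' processing notes. Here each array was rescaled to a 2% trimmed mean of 500 and log2(signal + 32) was taken, so fold changes of dim probe sets are understated. Probe sets that reached 100 on 2 or more arrays (28005 of 45037) were tested with limma 3.58.1 in R 4.3.3 (lmFit and eBayes with a trend, two-sided, Benjamini-Hochberg adjustment over all tested probe sets in each comparison, called at an adjusted p under 0.05). The scripts were tested on simulated data. The losses of Rb1, p107 and p130 over all backgrounds came from an additive fit, and 10 further comparisons from a fit of genotypes. The single p107 KO array entered no pair. Permutation tests of correlations drew 1e+05 resamples (Python 3.11.15, numpy 2.4.6, scipy 1.17.1, pandas 2.3.3, matplotlib 3.10.9).

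Probe sets took GEO's platform annotation, in which 34945 had 1 symbol, 932 several and 9160 none, and 34741 of those with 1 symbol matched the RefSeq gene table. Promoters were credited to RefSeq, GRCm38.p6. All globin probe sets were named, with up to 4 called members of each gene list and the 8 most and 4 least alike genes among those whose mean log2 signal was 8 or more. The members, gene lists and tests were chosen with earlier results of these data known. The alternatives were 19 planned and 2 chosen after seeing the data, with each of 34 arrays left out in turn. Array number limits the precision, and read depth does not apply to arrays.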

Additional observations from a re-analysis of the deposited data

Results flagged for a closer look

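In 6 of 60 groups of 4 to 10 arrays examined, 1 array stood apart from the others by more than Dixon's critical value. The groups reuse the same arrays for each probe set, and Hbb-y 1436717_x_at and 1436823_x_at flagged the same arrays. The count is therefore not set against chance. For Hbb-y, array 1 of Rb1;p107 DKO was low at 36718 (1436717_x_at, next lowest 47678) and 36167 (1436823_x_at, next lowest 47456). It is the only array of that genotype in array group 1. Array 4 of the TKO was high at 53782 (1436717_x_at, next 40413) and 53941 (1436823_x_at, next 40875). Array 2 of Rb1;p107 DKO was high for Hba-x, at 29008 against 22021 for the next. Array 5 of Rb1;p107 DKO was high for the shared adult β probe set 1417184_s_at, at 28883 against 24112.

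In 3 of 117 pairs of contrasts every array of the first genotype lay on one side of the other genotype's mean log2 value in 1 contrast, and on the opposite side in the other. These differences were not tested. Hba-x changed by -0.78 (log2) in Rb1 KO against wild type and by 0.39 in the TKO against p107;p130 DKO. Hbb-y (1450621_a_at) changed by -0.10 and 0.19 in the same contrasts. The adult β probe set 1417184_s_at changed by -0.23 in the TKO against Rb1;p107 DKO and by 0.24 in p130 KO against wild type.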

How the results depend on the processing

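Over 169 values and 9048 recomputed values, 9013 kept their side of the threshold and, where called, their direction, 4 lost and 31 gained a call, and 0 reversed a call. Values that were not called could change sign. With Rb1 loss, the number of globin probe sets called moved from 1 to 0 when arrays were centred on red cell markers or on the 100 brightest probe sets, to 3 with array group as a block (also with sex) and within array group 1, and to 0 within array group 3. Over all 28005 probe sets, 956 were called with the array group block and 282 within array group 1. Where p107 and p130 were absent the number of globin probe sets called moved from 0 to 1 with the array group block, also with sex. Array weights gave 3 with p107 loss, 1 with p107 loss where Rb1 and p130 were absent, 5 in Rb1;p107 DKO against Rb1;p130 DKO (13.3% of all probe sets called) and 6 against p107;p130 DKO (10.8%). The TKO against wild type had 1 within array group 2 (44 of 28005 probe sets), which sets the TKO arrays there against 1 wild type array assumed to vary like the other arrays. Leaving out 1 array gave 0 to 1 with p107 loss and 0 to 1 in Rb1;p107 DKO against Rb1;p130 DKO. The first call came without wild type replicate 2 (Hbb-bh1 1437990_x_at, 0.52 ± 0.13, adjusted p = 0.0375), the other without Rb1;p107 DKO replicate 1 (Hbb-y 1436717_x_at, 0.40 ± 0.12, adjusted p = 0.0430). Over all probe sets these counts ran from 75 to 358 and from 14 to 1238. With quantile normalization Hbb-y and Hbb-bh1 correlated at 0.38 (adjusted permutation p = 0.0472) and the deviations of Hbb-y and Hba-x at 0.36 (adjusted permutation p = 0.0972). The cause of these changes was not tested. Whether replicate numbers pair the arrays was not settled. Of 67 same-numbered pairs, 31 had a correlation over 0.1 (range -0.40 to 0.52), but no differently numbered pairs were set beside them. Among p107;p130 DKO arrays, 2 of 6 TKO arrays were most alike to their own number. With the replicate block 1 globin probe set was called with p107 loss (Hba-a2 1427219_at, -0.39 ± 0.09, adjusted p = 0.0278; 287 of 28005 probe sets) and 3 in Rb1;p107 DKO against Rb1;p130 DKO (1240 of 28005). Groups of 1 to 3 arrays and probe sets near the top or bottom of the signal range limit what can be measured.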
